A study of Rattus norvegicus with 4 samples.

Results

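The genes of MHC class II antigen presentation were measured in rat olfactory ensheathing cells with high and low surface p75. The genes were RT1-Ba, RT1-Bb, RT1-Da, RT1-Db1, RT1-DMa, RT1-DMb, Cd74, Ciita, Cd80 and Cd86, taken as all probes whose name on the array was one of these 10. By the name in the array file, 12 probes of 7 genes were found among 41012 probes. RT1-DMa and Ciita stood under older names and were added through their accessions, which gave 14 probes of 9 genes, out of 35655 distinct gene or transcript names on the array. RT1-DMb was not analysed here.

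Both populations came from cultured olfactory ensheathing cells of male Fischer rats, grown alike and given no agent that the labels name. The cells were separated by flow cytometry on p75, the neurotrophin receptor encoded by Ngfr, at a purity of 98% by the labels. Each of 4 biological replicates gave a paired p75High and p75Low sample, hybridised to 1 array as Cy5 (p75High) and Cy3 (p75Low). The mRNA was amplified by global PCR before labelling, and 250 ng of cDNA entered each labelling. No array had the dyes exchanged, so a dye effect and a difference between the populations cannot be told apart. The labels give no age and do not say whether the replicates were separate animals or cultures, so a p-value speaks of the scatter among these samples alone, part of which may be technical. In sorted bulk samples, fewer cells of a type and less RNA per cell cannot be told apart.

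Class II molecules present peptides from endocytosed proteins to CD4+ T cells. In the rat, RT1-Ba and RT1-Bb encode the alpha and beta chains of RT1-B, the counterpart of human HLA-DQ, and RT1-Da and RT1-Db1 encode those of RT1-D, the counterpart of HLA-DR. The chains assemble in the endoplasmic reticulum on Cd74, the invariant chain, which blocks the groove and directs them to endosomes, where proteases such as cathepsin S trim Cd74 and the DM heterodimer exchanges its remnant for peptide. Ciita is the transactivator that class II genes depend on, and it is induced by interferon gamma. Cd80 and Cd86 are the B7 ligands that costimulate T cells through CD28. Professional antigen presenting cells (dendritic cells, B cells and macrophages) express these genes, and microglia and some glia acquire them when activated.

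The promoters of the chain genes are shown because these genes are known to be controlled through a shared module, the X box, bound by the RFX complex, followed by the Y box, bound by NF-Y. The sequences are from RefSeq (assembly GRCr8), each written 5′ to 3′ on the strand of the gene. Capitals mark GCAAC, a core of the X box, and ATTGG, the core of the Y box. They lie at chr20:4576971-4577028 (+ strand, RT1-Ba), chr20:4604165-4604222 (− strand, RT1-Bb), chr20:4515323-4515380 (+ strand, RT1-Da), chr20:4560228-4560284 (− strand, RT1-Db1), chr20:4712385-4712442 (− strand, RT1-DMa) and chr18:56527126-56527183 (+ strand, Cd74).
RT1-Ba: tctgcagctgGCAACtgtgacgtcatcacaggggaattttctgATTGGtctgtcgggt
RT1-Bb: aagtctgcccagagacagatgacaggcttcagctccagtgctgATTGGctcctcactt
RT1-Da: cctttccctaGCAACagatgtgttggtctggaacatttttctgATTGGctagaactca
RT1-Db1: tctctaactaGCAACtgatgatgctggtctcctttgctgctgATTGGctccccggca
RT1-DMa: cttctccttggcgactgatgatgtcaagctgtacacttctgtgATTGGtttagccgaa
Cd74: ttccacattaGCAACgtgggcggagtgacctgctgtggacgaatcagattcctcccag

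In the window from 250 bases before to 50 bases after the start, GCAAC followed by 20 to 35 bases and then ATTGG stood on the sense strand of RT1-Ba, RT1-Da and RT1-Db1. The gap between the motifs was 28 bases in RT1-Ba, 28 in RT1-Da and 27 in RT1-Db1. Of 33469 promoters of 27457 genes, 0.29% held this arrangement on the sense strand and 0.663% on either strand, while GCAAC alone stood in 35.1% and ATTGG alone in 37.5%, counted on both strands. RT1-Bb and RT1-DMa held ATTGG without GCAAC, and Cd74 held GCAAC at -70 without ATTGG on the same strand. The genes for the DO heterodimer, RT1-DOa and RT1-DOb, also held the pair, with gaps of 28 and 25 bases. Cd86 held neither motif, and the promoters of Cd80 held no pair in this arrangement. A match is a description of these letters and not a binding site.

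**Figure D1:**
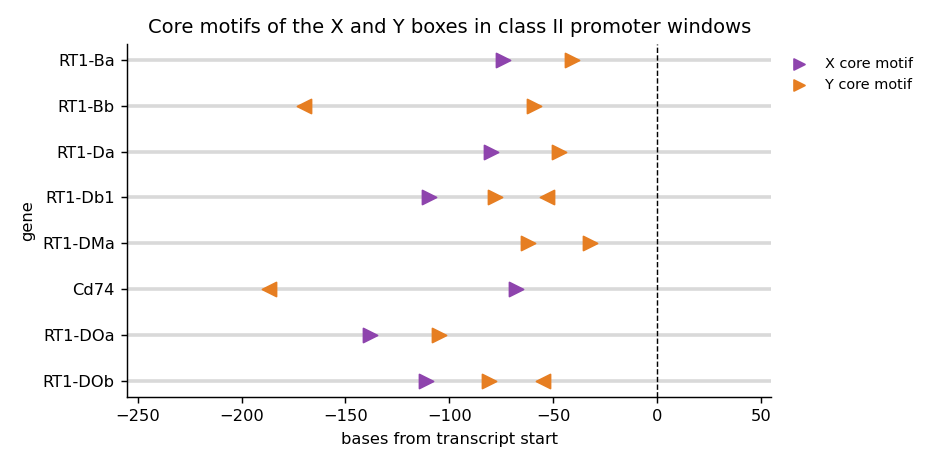
Position of GCAAC and ATTGG in the RefSeq promoters (GRCr8) of the class II genes with an entry. The x axis is the distance in bases from the annotated start, each line is 1 promoter, purple marks GCAAC (X core) and orange ATTGG (Y core), and arrows point right on the sense strand. RT1-Ba, RT1-Da, RT1-Db1, RT1-DOa and RT1-DOb hold GCAAC upstream of ATTGG at a gap of 25 to 28 bases.

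The 14 probes are named by gene and by the start number that the array file gives, whose reference the file header does not state. Positions are those of the file, on the rat build rn4. The probes of the class II chains lie in the class II region of chromosome 20: RT1-Da at chr20:4638704-4638763 and chr20:4641104-4641163, RT1-Db1 at chr20:4672677-4672736, chr20:4673410-4673469 and chr20:4677050-4677109, RT1-Ba at chr20:4700973-4701032, and RT1-Bb at chr20:4730533-4730583 and chr20:4732962-4733021. The probe for RT1-DMa lies further along at chr20:4843704-4844066, where its ends span 363 bases of the genome. Outside this region lie the probes for Cd74 (chr18:56765468-56765527), Ciita (chr10:5087172-5087231), Cd80 (chr11:64051092-64051151) and Cd86 (chr11:66228898-66228957). The second RT1-Ba probe has no position in the file, and whether a probe lies in coding or untranslated sequence was not analysed here.

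The probe sequences of RT1-Ba and RT1-Db1 are shown because probes of the same gene gave like values for RT1-Ba and unlike ones for RT1-Db1. They are as the array files give them, and capitals mark the longest run, 17 bases, that both RT1-Ba probes share. In the best alignment of these probes without gaps, 35 of 54 overlapping bases matched.
RT1-Ba at 274: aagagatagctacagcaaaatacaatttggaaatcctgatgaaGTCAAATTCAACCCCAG
RT1-Ba at 302: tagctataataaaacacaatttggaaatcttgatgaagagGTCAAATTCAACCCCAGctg
RT1-Db1 at 123: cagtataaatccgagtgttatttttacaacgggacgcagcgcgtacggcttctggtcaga
RT1-Db1 at 539: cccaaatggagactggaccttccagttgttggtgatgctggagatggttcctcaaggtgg
RT1-Db1 at 668: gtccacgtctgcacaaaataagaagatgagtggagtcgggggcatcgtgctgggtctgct

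The RT1-Ba probes therefore overlap in sequence and are not independent measurements. No other probe of the 14 shared more than 9 bases in a row with another class II or costimulator probe.

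All levels below are log2 intensities after background correction, normalisation within each array and quantile normalisation of average intensity between the arrays. All ratios are log2 of p75High over p75Low, so a negative ratio is a lower signal in p75High. The lowest signal among probes well above background lay between 5.08 and 6.27 over the 8 channels, so a level near 6 is at or close to background. Between 22464 and 28062 probes were well above background in a channel. As a check of the sort, Ngfr had ratios of 6.07, 6.17, 5.02 and 5.96 in replicates 1 to 4 (adjusted p = 0.0262), and it was higher in p75High on 4 of 4 arrays. A probe was tested where 1 of the populations gave a signal well above background in 3 or more of its 4 samples.

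None of the class II presentation probes passed the test. Of the 14 probes, 6 were tested and 0 passed an adjusted p of 0.05 in limma, while 163 of 24872 probes (0.655%) did so over the whole array, 0.394% lower and 0.261% higher in p75High. At an unadjusted p under 0.05, 1 of the 6, RT1-DMa, was counted, beside 12.5% of all tested probes. The median ratio of the 6 was -0.71, beside -0.03 over all tested probes. The other 8 were at background on too many arrays to be tested: both RT1-Ba, both RT1-Da, RT1-Db1 at 123, Ciita, Cd80 and Cd86. With no filter on dim probes, all 14 could be tested and 0 passed, beside 0.181% of 40943 probes; 1 had an unadjusted p under 0.05, beside 9.05%.

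Where the populations differed by 4-fold or more, p75High was always the lower, mostly on single arrays. On at least 1 array, 9 probes of 7 genes were 4-fold or more lower in p75High, beside 27.2% of all probes, and 0 were 4-fold or more higher, beside 24.7%. Which genes were lower depended on the replicate: RT1-Ba, RT1-Bb, RT1-Db1, RT1-DMa and Cd80 in replicate 2, Cd74 in replicate 1, RT1-DMa in replicate 3, and RT1-DMa and Cd86 in replicate 4. The counts were 1, 7, 1 and 2 of 14 probes in replicates 1 to 4, beside 9.89%, 11.3%, 8.71% and 8.41% of all probes on those arrays. The median ratio of the 14 probes was -1.76 in replicate 2, against -0.01 in replicate 1 and -0.07 in replicate 3. Many of the 14 were at background with ratios near 0, so a median near 0 is not a measure of equal expression.

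**Figure D2:**
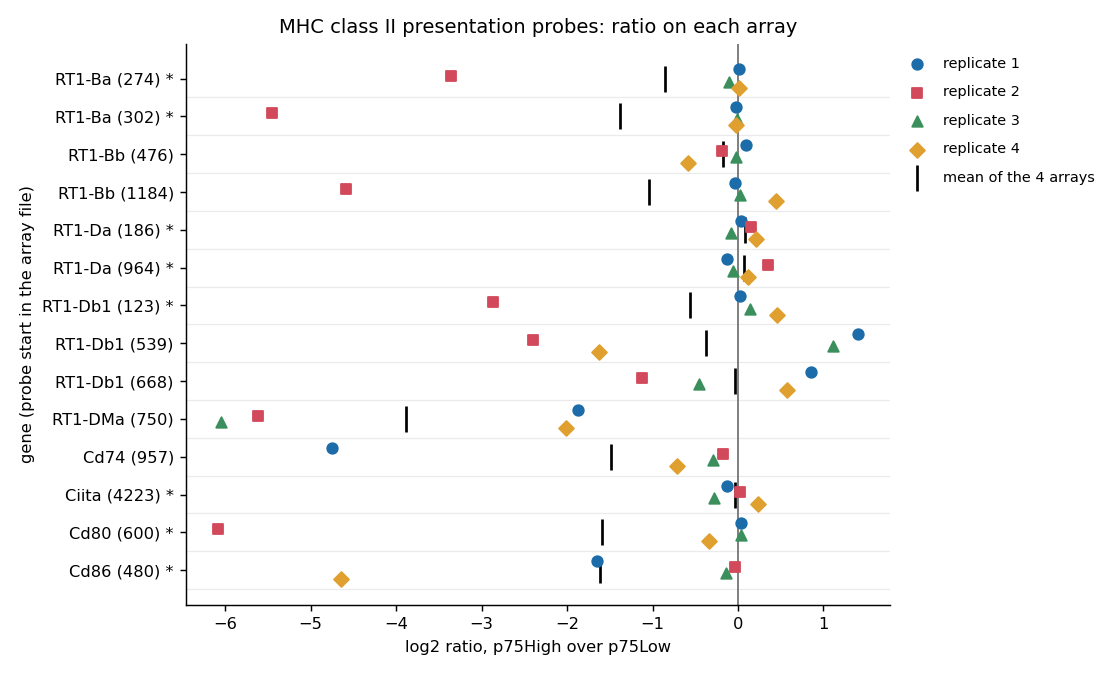
Log2 ratio of p75High over p75Low (x axis) for each of the 14 probes (y axis, gene and start in the array file), with 1 point per array and a bar at the mean of the 4 arrays; an asterisk marks the probes that were not tested. Most points lie near 0, and points at or below -3.36 belong to replicate 2 for RT1-Ba, RT1-Bb at 1184 and Cd80, to replicates 2 and 3 for RT1-DMa (-5.62 and -6.05), to replicate 1 for Cd74 (-4.75) and to replicate 4 for Cd86 (-4.65).

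RT1-Ba, the RT1-B alpha chain, was detected in p75Low of 1 replicate. For the RT1-Ba probe at 302, the levels in replicates 1 to 4 were 6.04, 5.78, 6.06 and 6.16 in p75High and 6.06, 11.23, 6.08 and 6.18 in p75Low. It was not well above background on any array in p75High and was so in p75Low of replicate 2 alone, where p75Low was at least 40.2-fold brighter than the lowest signal above background in p75High. The ratios were -0.02, -5.45, -0.01 and -0.02, with a mean of -1.38 ± 2.72 (SD, n = 4).

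The RT1-Ba probe at 274 gave the same picture, with p75High at 6.11, 5.64, 5.89 and 6.01 and p75Low at 6.10, 9.0, 6.0 and 6.0. Its ratios were 0.01, -3.36, -0.11 and 0.01, a mean of -0.86 ± 1.67 (SD, n = 4), and p75Low of replicate 2 was at least 8.59-fold brighter. For group means, p75High was taken at its measured level or at the lowest signal above background, whichever was higher. On that basis p75Low was at least 1.67-fold brighter at 274 and at least 2.5-fold at 302. Both bounds rest on replicate 2, since the 3 other p75Low samples lay at background.

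RT1-Bb, the partner beta chain, was high in the same sample by its probe at 1184. That probe read 6.23, 7.60, 6.30 and 6.67 in p75High and 6.25, 12.19, 6.28 and 6.22 in p75Low, so p75Low of replicate 2 stood above the 7 other samples and p75High of replicate 2 came next. Its ratios were -0.03, -4.59, 0.02 and 0.44, a mean of -1.04 ± 2.38 (SD, n = 4, SE 0.99, limma adjusted p = 0.675, 95% interval -3.65 to 1.57). Without replicate 2 the mean was 0.15, and with the scanner's own ratios it was -0.30. The RT1-Bb probe at 476 did not show this sample: p75High read 6.97, 7.60, 7.22 and 8.49 and p75Low 6.88, 7.80, 7.24 and 9.08. The populations overlapped there, with ratios of 0.09, -0.19, -0.02 and -0.59 (mean -0.18 ± 0.30, SD, n = 4, adjusted p = 0.806, 95% interval -0.94 to 0.58). The probes of RT1-Bb thus disagreed in replicate 2 by over 4 on the log2 scale.

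The RT1-D chains behaved differently from each other. RT1-Da was at background: its probe at 186 read 6.12, 6.35, 6.10 and 6.18 in p75High and 6.09, 6.20, 6.18 and 5.97 in p75Low, and it was well above background on 0 arrays. The RT1-Da probe at 964 was above background in replicate 1 only, at 6.38 in p75High and 6.51 in p75Low. Mean ratios were 0.08 ± 0.13 and 0.07 ± 0.21 (SD, n = 4), so p75Low of replicate 2, in which RT1-Ba and RT1-Bb at 1184 were bright, had no signal for RT1-Da that stood out from the others.

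RT1-Db1, the RT1-D beta chain, was well above background in all 8 samples by its probes at 539 and 668. The probe at 539 read 10.23, 8.97, 9.28 and 8.29 in p75High and 8.83, 11.37, 8.17 and 9.92 in p75Low. The populations overlapped and the sign turned between replicates, with ratios of 1.40, -2.40, 1.11 and -1.63 (mean -0.38 ± 1.92, SD, n = 4, adjusted p = 0.856, 95% interval -2.53 to 1.76). At 668, p75High read 9.23, 9.31, 8.76 and 10.29 and p75Low 8.39, 10.43, 9.22 and 9.72, with ratios of 0.85, -1.12, -0.46 and 0.57. That mean was -0.04 ± 0.92 (SD, n = 4, adjusted p = 0.973, 95% interval -1.23 to 1.15), and the populations again overlapped. The mean changed sign under other settings for both probes, to 0.16 at 668 with median centring and to 0.29 at 539 without replicate 2.

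The RT1-Db1 probe at 123 was near background outside replicate 2. It read 6.14, 6.12, 6.30 and 6.82 in p75High and 6.12, 8.98, 6.16 and 6.36 in p75Low, and p75Low of replicate 2 was 7.29-fold brighter than its partner. The ratios were 0.02, -2.87, 0.14 and 0.46 (mean -0.56 ± 1.55, SD, n = 4). For each of the 3 RT1-Db1 probes, p75Low of replicate 2 was the brightest of the 8 samples. At 668 the lead was small, 10.43 against 10.29 in p75High of replicate 4.

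**Figure D3:**
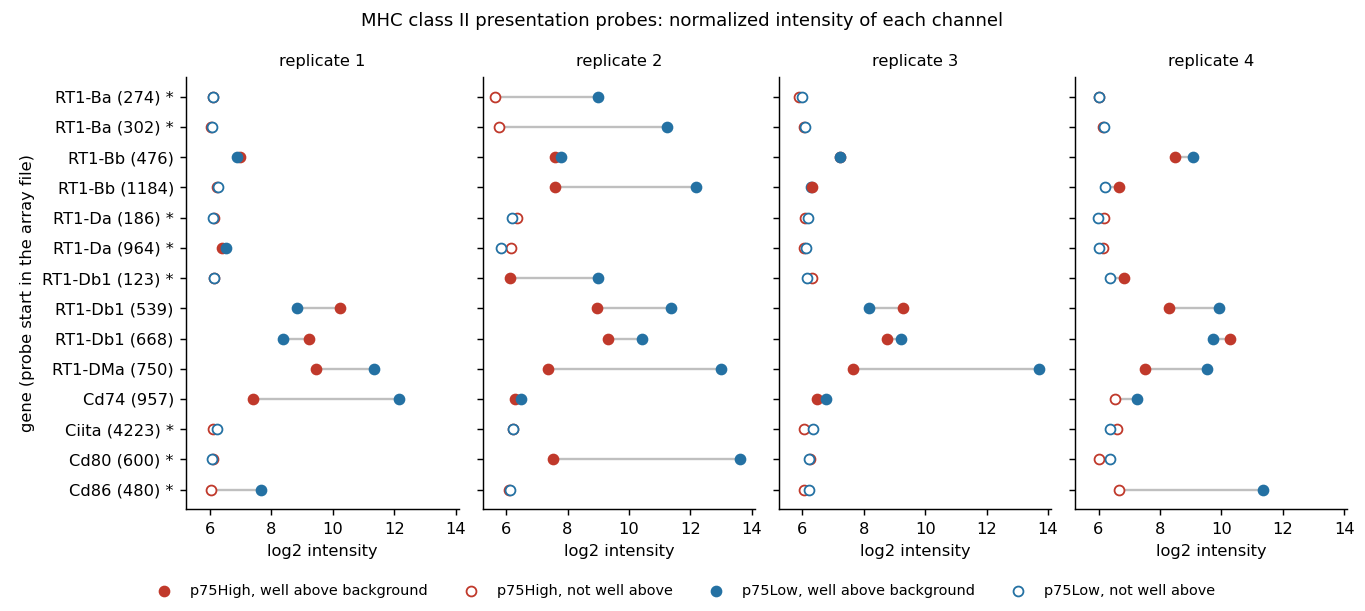
Log2 intensity (x axis) of each of the 14 probes (y axis, gene and start in the array file) in p75High (red) and p75Low (blue), 1 panel per replicate; open points were not well above background, and an asterisk marks the probes that were not tested. RT1-Da and Ciita stay between 5.83 and 6.61 in all 8 samples, RT1-Db1 at 539 and 668 stays between 8.17 and 11.37, and RT1-DMa is lower in every p75High sample (7.37 to 9.46) than in any p75Low sample (9.52 to 13.70).

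RT1-DMa, the alpha chain of the peptide-exchange heterodimer DM, had the largest mean difference of the class II genes. It was lower in p75High on 4 of 4 arrays. In all, 4 of the 14 probes were so (RT1-DMa, RT1-Ba at 302, Cd74 and Cd86), beside 4436 of 40822 over the whole array. RT1-Ba at 302 and Cd86 were not tested. At background in both channels, RT1-Ba at 302 had -0.02, -0.01 and -0.02 in replicates 1, 3 and 4. Cd86 had -0.04 and -0.14 in replicates 2 and 3, also at background. RT1-DMa read 9.46, 7.37, 7.66 and 7.51 in p75High and 11.34, 12.99, 13.70 and 9.52 in p75Low. The populations thus did not overlap, by a margin of the lowest p75Low (9.52) over the highest p75High (9.46). The ratios were -1.87, -5.62, -6.05 and -2.01, large in replicates 2 and 3 and smaller in 1 and 4. The mean was -3.89 ± 2.25 (SD, n = 4, SE 0.94, 95% interval -6.37 to -1.40), which is 14.8-fold lower in p75High. The unadjusted limma p was 0.0108 and the adjusted p 0.27, so it did not pass. Over 13 other settings the mean stayed between -4.56 and -3.17 and the adjusted p between 0.138 and 0.578. Over the array, 13.0% of the tested probes with a reading on all 4 arrays were lower in p75High on each of the 4.

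Cd74, the invariant chain, was bright in p75Low of replicate 1 and low elsewhere. It read 7.39, 6.29, 6.49 and 6.55 in p75High and 12.15, 6.47, 6.78 and 7.26 in p75Low. The ratios were -4.75, -0.18, -0.29 and -0.71, negative on 4 of 4 arrays, and the populations overlapped. The mean was -1.49 ± 2.19 (SD, n = 4, SE 0.92, adjusted p = 0.543, 95% interval -3.90 to 0.93). Without replicate 1 it was -0.40, so replicate 1, at 26.9-fold, sets most of its size, and with the scanner's own ratios it was -2.32. In replicate 2, where p75Low was bright for RT1-Ba, RT1-Bb at 1184 and the 3 RT1-Db1 probes, Cd74 read 6.47 in p75Low.

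Ciita, the class II transactivator, was not well above background in any of the 8 samples. It read 6.11, 6.24, 6.06 and 6.61 in p75High and 6.24, 6.22, 6.35 and 6.38 in p75Low, with ratios of -0.13, 0.02, -0.28 and 0.23 (mean -0.04 ± 0.22, SD, n = 4). A difference in Ciita was not detectable at this signal, and only 1 probe, with a start of 4223 in the array file, measured it.

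The costimulatory ligands were each bright in p75Low of different replicates. Cd80 read 6.11, 7.53, 6.26 and 6.02 in p75High and 6.07, 13.61, 6.23 and 6.36 in p75Low. It was well above background only in replicate 2, in both populations, with p75Low 67.6-fold brighter. The ratios were 0.04, -6.08, 0.03 and -0.34 (mean -1.59 ± 3.00, SD, n = 4).

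Cd86 read 6.03, 6.09, 6.07 and 6.68 in p75High and 7.68, 6.13, 6.22 and 11.34 in p75Low. It was well above background in p75Low of replicates 1 and 4 and in no p75High sample. The ratios were -1.65, -0.04, -0.14 and -4.65 (mean -1.62 ± 2.15, SD, n = 4), with p75Low of replicate 4 at least 25.2-fold brighter. As a group mean, p75Low was at least 3.08-fold brighter than the measured p75High level, which rests on those 2 samples. Cd80 and Cd86 were bright in no sample together.

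A signal 4-fold or more lower in p75High on exactly 1 array and within 2-fold on the other 3 was counted for all probes, a pattern chosen after the values were seen. It was met by 6 of 14 class II presentation probes (42.9%: both RT1-Ba, RT1-Bb at 1184, RT1-Db1 at 123, Cd74 and Cd80) and by 2780 of 40822 probes (6.81%) on the whole array. The probes of a gene share a target, so the 6 probes are 5 genes. Ratios closest to those of Cd74 over the 4 arrays, by root mean square difference among 6520 probes of genes with a symbol, were those of Kat5 (0.335), Ppp1r3c (0.341), Aldh16a1 (0.350), Cenpq (0.353), Stau2 (0.356) and Rrm2 (0.360). Chosen for likeness to Cd74, each of these 6 genes had its lowest ratio in replicate 1, from -4.94 to -4.22, where p75Low was bright. The 6 are known for such varied roles as histone acetylation (Kat5) and deoxyribonucleotide synthesis (Rrm2).

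Among the proteases and other genes that act on Cd74 and on antigen, some were lower in p75High on every array and others turned sign between replicates. Of 16 genes for class II peptide processing and loading, 15 were tested, 4 were lower in p75High, 0 higher and 11 did not pass, with a median ratio of -2.01 beside -0.03 over all genes, of which 0.392% were lower. Ctss, cathepsin S, which makes the last cuts in the invariant chain, read 9.57, 8.06, 8.88 and 8.91 in p75High and 14.98, 15.22, 14.49 and 15.17 in p75Low. All p75Low samples lay above all p75High samples, and the ratios were -5.41, -7.16, -5.61 and -6.25 (mean -6.11 ± 0.79, SD, n = 4, adjusted p = 0.0262). Ctsz, the carboxypeptidase cathepsin Z, fell by 5.32 (SD 0.90, adjusted p = 0.0307), and Cst3, the cathepsin inhibitor cystatin C, fell by 4.54 (SD 0.89, adjusted p = 0.0409). The fourth was Ctsb, cathepsin B, at -3.81 ± 0.50 (SD, n = 4, adjusted p = 0.0328).

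Each of these 4 was lower in p75High on 4 of 4 arrays, with ratios of -3.26 or below. With no filter on dim probes, Ctsz, Cst3 and Ctsb no longer passed (adjusted p = 0.0618, 0.0825 and 0.0502), and without any 1 of the 4 replicates no probe on the array did. The aspartic protease Ctsd, cathepsin D, went both ways, with ratios of -3.58, 1.27, -3.38 and 4.81 (mean -0.22 ± 4.03, SD, n = 4). Ctsh, cathepsin H, had 0.12, -1.40, 4.96 and 5.81 (mean 2.38 ± 3.55), and neither passed (adjusted p = 0.96 and 0.54). RT1-DOb, the beta chain of the DM inhibitor DO, did not pass either. It read 9.74, 13.45, 7.08 and 7.04 in p75Low, with ratios of -3.39, -6.38, -0.75 and -0.43 (mean -2.74 ± 2.77, SD, n = 4, adjusted p = 0.428). Thus RT1-DOb too was brightest in p75Low of replicate 2, then in replicate 1.

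The factors that assemble on class II promoters gave no call. Of 14 genes for class II transcription, 11 were tested and 0 passed in limma. At an unadjusted p under 0.05 there were also 0, beside 2796 of 22187 over all genes. The median ratio of the 11 was 0.22. The smallest p-values were those of Rfxank, a subunit of the RFX complex (1.1 ± 1.51, SD, n = 4, adjusted p = 0.538), and Spi1, the myeloid factor PU.1 (-1.68 ± 1.82, adjusted p = 0.461). Other probes of Rfxank had the opposite sign, at -1.16 and -0.77.

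Of 10 genes for interferon gamma input, 9 were tested and 0 passed in limma. At an unadjusted p under 0.05 there were 3, beside 2796 of 22187 over all genes. The median ratio of the 9 was -0.90. Ifngr1, the ligand-binding receptor chain, read 7.0, 8.36, 6.40 and 8.38 in p75High and 11.11, 12.48, 8.64 and 12.21 in p75Low, so the populations did not overlap. Its ratios were -4.11, -4.12, -2.24 and -3.84 (mean -3.58 ± 0.90, SD, n = 4, adjusted p = 0.0702), lower in p75High on 4 of 4 arrays. Ciita, which this pathway induces, was at background on all 4, and a link between the 2 genes was not tested.

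Other ligands that act on T cells gave no call. Of 14 such genes, 8 were tested and 0 passed in limma. At an unadjusted p under 0.05 there were 3, beside 2796 of 22187 over all genes. The median ratio of the 8 was -0.67. The smallest p-values belonged to Vsir, the inhibitory ligand VISTA (-4.97 ± 1.17, SD, n = 4, adjusted p = 0.0518; its other probe -2.10), and Lgals9, galectin-9 (-0.77 ± 0.18, adjusted p = 0.375). Vsir passed in 4 of 13 other settings.

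**Figure D4:**
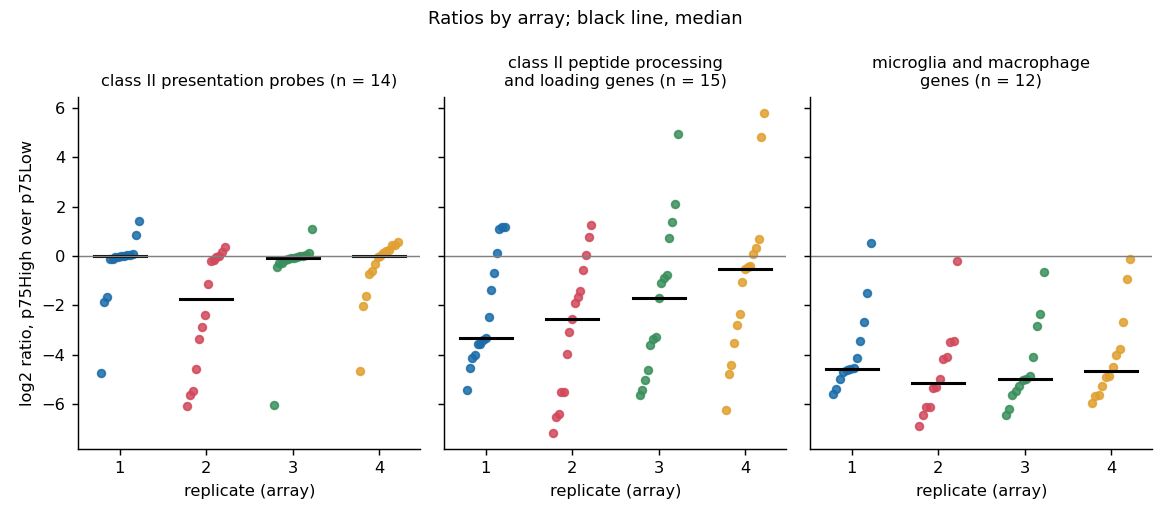
Log2 ratio of p75High over p75Low (y axis) on each of the 4 arrays (x axis), for the 14 class II presentation probes, the 15 tested genes of peptide processing and loading and the 12 tested genes of microglia and macrophages; each point is a probe or gene and the black line the median. The median of the macrophage genes lies between -5.14 and -4.56 on every array. That of the class II presentation probes is -1.76 in replicate 2 and within 0.1 of 0 on the other arrays. Unlike the gene lists, the 14 probes include those not tested, many of them at background with ratios near 0. Their median near 0 is therefore not a measure of equal expression.

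Markers of cells that present antigen were set beside these values. Of 13 markers of microglia and macrophages, 12 were tested, 8 were lower in p75High and 0 higher, and 11 were negative on all 4 arrays, with a median of -4.57. Over the array, 0.392% of genes were called lower and 13.0% of tested probes were negative on all 4 arrays. Csf1r, the receptor for colony stimulating factor 1, was at -6.08 ± 0.61, Adgre1, an adhesion receptor of macrophages, at -5.87 ± 0.69 and Itgam, the CD11b integrin chain, at -5.77 ± 0.33 (SD, n = 4, adjusted p = 0.0262 for each). These are the brightest probes of their genes, and other probes of Csf1r read -0.25 and 0.41. The summed intensity of the list was 7400 to 10800 in p75High and 183000 to 314000 in p75Low. In p75Low of replicate 2, where RT1-Ba, RT1-Bb at 1184, RT1-Db1 and Cd80 were bright, the sum was 241000, inside the range of the other p75Low samples. In p75Low of replicate 1, the sample bright for Cd74, it was 183000, the lowest of the 4. The part of these cells in the class II differences was not tested.

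Markers of dendritic cells, B cells and T cells gave 1 call. Over all genes, 0.392% were called lower and 0.275% higher in limma, and 2796 of 22187 had an unadjusted p under 0.05. Of 9 dendritic cell markers, 2 were tested and 0 passed in limma (0 at an unadjusted p under 0.05), with Batf3 at -0.24 ± 1.16 (adjusted p = 0.863) and Ccr7 at 0.02 ± 0.36 (adjusted p = 0.976). Cd209a, Siglech and Xcr1 were above background in no p75Low sample, and the summed intensity was 426 to 855 in p75High and 375 to 1020 in p75Low. Of 6 B cell markers, 2 were tested and 0 passed (0 unadjusted), with Cd79b at 0.09 ± 0.83 and Cr2 at -0.69 ± 0.46. With the scanner's own ratios Cr2 was at -3.47 (adjusted p = 0.136); it was above background in no p75High sample. Ms4a1 was above background in no p75Low sample, and the sums were 188 to 390 in p75High and 256 to 376 in p75Low. In p75Low of replicate 2 the dendritic sum was 541 and the B cell sum 271, both inside the range of the other replicates. Each sum holds only the 2 tested markers of its list. A marker above background in p75Low of replicate 2 alone would not have been tested and is in neither sum. Of 7 T cell markers, 4 were tested and 1 was lower: Cd4, at -5.71 ± 0.57 (SD, n = 4, adjusted p = 0.0262), which rat macrophages also express. The other tested T cell markers had mean ratios of -0.39 (Cd3d), 0.04 (Cd3g) and 0.06 (Cd8a). Cd28 was above background in no p75Low sample, and the T cell sums were 348 to 655 in p75High and 2810 to 17600 in p75Low. Most of the p75Low sum is Cd4, which read 11.27 to 14.07 there, while Cd3d, Cd3g and Cd8a read 6.17 to 7.97.

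Both populations are labelled as ensheathing cells, and the markers of that lineage were brighter in sum on the p75High side. Of 10 markers of ensheathing and Schwann lineage glia, all 10 were tested, with a median of 1.99. In p75High, 1 was higher (Ngfr, on which the cells were sorted) and 0 lower, beside 0.275% and 0.392% of all genes. The summed intensity of the 10 markers was 34200 to 52600 in p75High and 3960 to 15100 in p75Low. Of 9 fibroblast markers, 6 were tested and 0 passed in limma, with a median of -0.94. At an unadjusted p under 0.05 there were 4 of these, beside 2796 of 22187 over all genes. Postn, the matrix protein periostin, was at 4.80 ± 1.60 (adjusted p = 0.0992) and Col1a1, a collagen I chain, at 2.73 ± 1.20 (adjusted p = 0.198; its other probes 3.79, which passed at an adjusted p of 0.0363, and 3.56). The other tested fibroblast markers had negative means, -2.71 for Col1a2 and -0.99 for Thy1 (both negative on 4 of 4 arrays), -2.42 for Col3a1 and -0.89 for Fn1.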

How the data were processed

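The 2-colour Agilent arrays (design 014879) of 4 paired replicates were read with Feature Extraction 10.5.1.1, per the file headers; version 10.5 of the same software is named in the submitters' processing notes. Per the file headers, the deposited intensity values were the mean brightness of each spot and the median of its local background, without normalisation. The deposited log10 ratios of Cy5 over Cy3 had been made by the scanner software after background subtraction, detrending and dye normalisation (per the file headers), and the authors' value table held the same ratios (maximum difference 0). Whether a spot was well above background, saturated or an outlier was taken from the deposited flags.

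R 4.3.3 with limma 3.58.1 corrected the intensities by normexp (offset 50) and normalised each array by loess (span 0.3). For the levels, the average intensities of both channels were then quantile normalised between the arrays. The tested ratios were taken before that step. The 1639 control spots were left out, as were 1112 of 173516 readings (0.641%) marked as outliers; 0 spots were saturated. Of 41012 probes, 24941 had a signal well above background in 3 or more samples of 1 population, and 24872 had the readings to be tested. The log2 ratio was tested against 0 with lmFit and eBayes, two-sided, with Benjamini-Hochberg adjustment over all tested probes at 0.05. The fit was tested on simulated data. In lists, each gene is represented by its brightest tested probe. The number of arrays limits the precision, and all 4 arrays lay on 1 slide.

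The ratio is the paired difference that the labels' design states. With group means taken off, the deviations of both channels of an array correlated at 0.127, 0.0665, 0.0677 and 0.265, and at most at 0.0492 with another array. A RefSeq gene table (GRCr8) supplied current names for 10835 probes through their accession, 5196 through their symbol and 3478 through an older symbol; 21503 kept the file's name. Probe positions are on rn4, per the file headers. The genes, lists, tests and alternatives were chosen with earlier results of these data known. Named genes were Ngfr, all class II presentation probes, of each list up to 3 genes past the threshold by size (or, with none past it, the 2 of smallest p), and the 6 genes closest to Cd74; Ctsb, Ctsd, Ctsh, RT1-DOb, Col1a2, Thy1, Col3a1 and Fn1 were named after their values were seen. Some genes that this rule or the lists take are not reported here.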

Additional observations from a re-analysis of the deposited data

Results flagged for a closer look

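Sets of 4 values were the ratios of the 14 class II presentation probes and the medians of the 10 gene lists. In 6 of these 24 sets, 1 array lay far from the other 3, by its gap to the nearest over the whole range. For 4 independent normal values, chance alone gives about 1 in 20. These sets are not of that kind, since probes of a gene share a target and many ratios lay near 0 at background. The share of all probes that this measure flags is not given here. The RT1-Ba probe at 274 had a ratio of -3.36 in replicate 2 against -0.11 to 0.01 on the other arrays. The RT1-Ba probe at 302, which overlaps it in sequence, had -5.45 in replicate 2 against -0.02 to -0.01. RT1-Bb at 1184 had -4.59 in replicate 2 against -0.03 to 0.44, and RT1-Db1 at 123 had -2.87 against 0.02 to 0.46. Cd80 had -6.08 in replicate 2 against -0.34 to 0.04. Cd74 had -4.75 in replicate 1 against -0.71 to -0.18. In all 6 the distant array had the lower ratio, and in 5 of them it was that of replicate 2.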

How the results depend on the processing

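Over 13 other settings, 0 class II presentation probes passed the test in limma. Of 75 values of the 6 tested probes under other settings, 66 kept their sign and their side of the threshold and 9 reversed, none of them a called value. The mean ratio became 0.03 for RT1-Bb at 476 with median centring. For RT1-Db1 at 668 it became 0.01 with no background correction, 0.16 with median centring and 0.08 with the scanner's ratios. Leaving out 1 replicate at a time gave -1.53 to 0.15 for RT1-Bb at 1184 (positive without replicate 2), -0.97 to 0.29 for RT1-Db1 at 539 (positive, 0.29 and 0.04, without replicates 2 and 4) and -0.34 to 0.32 at 668 (positive, 0.32 and 0.10, without replicates 2 and 3). Of listed genes, Rfxank became -0.72 with the median over probes, and with 1 replicate left out the ranges were -0.77 to 0.16 for Batf3, -0.07 to 0.18 for Ccr7 and -0.26 to 0.41 for Cd79b. Csf1r was at -0.25 by the median over its probes and no longer passed. The number of probes called on the whole array was 163, and became 277 with the scanner's ratios, 74 with no filter on dim probes and 335 with no replicate block, where the pairing of the channels was ignored. Leaving out 1 replicate gave 0 to 0 called probes (2081 to 2652 at an unadjusted p under 0.05), with fewer samples in the fit. The listed genes called fell from 14 to 9 with no filter and to 0 to 0 with 1 replicate left out. The cause of the other changes was not tested. Signal limits the rest: RT1-Ba, RT1-Da, Ciita, Cd80 and Cd86 were at background in most samples.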

Other observations

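Probes that the array file describes as class II genes without one of the 10 names gave these values. A probe described as a class II antigen lies at chr20:4734503-4734562 on rn4, beside the RT1-Bb probes, and read 7.67, 11.31, 7.37 and 7.44 in p75Low of replicates 1 to 4. Its ratios were 0.07, -3.64, 0.32 and 1.26 (mean -0.50 ± 2.16, SD, n = 4, limma adjusted p = 0.828), so p75Low of replicate 2 was again the brightest sample. Another probe of such a description, without a position, had ratios of -0.61, -1.51, -1.49 and -2.75 (mean -1.59 ± 0.88, SD, n = 4, adjusted p = 0.316), lower in p75High on 4 of 4 arrays. RT1-DOa, the alpha chain of DO, was near background, with a mean ratio of -0.02 ± 0.44 (SD, n = 4). The 3 remaining probes of this kind were above background in all 8 samples and stood near 0 in replicate 2. A probe described as RT1-D beta 1 of another haplotype had a mean ratio of -0.14 ± 0.15 and -0.04 in replicate 2. The others had means of -0.33 ± 0.60 and 0.13 ± 0.44 (SD, n = 4), with 0.15 and 0.04 in replicate 2.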
